A study of Mus musculus with 9 samples.

Results

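Amino acid transporter genes of activated T cells were followed in splenic CD4+ T cells of the inbred mouse strain C57BL/6. The set held 8 of the 45321 genes measured by RNA sequencing, namely Slc7a5, Slc3a2, Slc7a6, Slc1a5, Slc1a4, Slc38a1, Slc38a2 and Slc7a1. They were picked by symbol as known carriers of T cells, and not by a measured value. Total CD4+ cells were purified untouched, that is without labelling the CD4+ cells themselves, and were not divided into subsets. All groups received 1 h of pretreatment, with the solvent DMSO (vehicle) or with 12.5 µM Compound 10, which the series describes as an inhibitor of NFAT:AP-1. This complex pairs NFAT, activated by calcium, with AP-1, activated by MAP kinases, on neighbouring DNA sites. The unstimulated groups, DMSO_US and Comp10_US, held 2 libraries each. The stimulated groups then received 10 nM PMA, an activator of protein kinase C, and 1 µM ionomycin, a calcium ionophore, for 2 h, and held 2 libraries with vehicle (DMSO_PI) and 3 with Compound 10 (Comp10_PI). The unstimulated groups are listed with 0 h of stimulation. Any difference between the states in total culture time or in exposure to Compound 10 was not tested. The labels do not give the age of the mice. They also leave unsaid whether replicate libraries stem from different mice or cultures, and p-values therefore refer to the scatter among these libraries, which may be technical.

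T cells that leave the resting state take up more amino acids for protein and nucleotide synthesis, and several plasma membrane carriers are induced on activation. Leucine, arginine and glutamine that enter through them are also signals to the mTORC1 kinase, which controls growth. Transcription factors such as MYC and ATF4 are known to act on many carrier genes, and ATF4 is the main factor of the cell's response to a shortage of amino acids.

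Libraries held 10669821 to 21852830 estimated counts. Nuclear ribosomal RNA took 1.78% to 26.3% of them, with the highest share in each state in a vehicle library, DMSO_US replicate 2 (26.3%) and DMSO_PI replicate 2 (13.8%). In each vehicle group that library also had the lower level of Slc7a5, Slc3a2, Slc1a5, Slc7a6, Slc1a4 and Slc38a1, so results are also given without both. A fit without both keeps a single vehicle library in each state and called fewer of all genes in each comparison. The 8 CD4 T cell markers summed to 805 to 2080 CPM (counts scaled to library size and by TMM between libraries), against at most 63.8 CPM for 7 B cell markers, 29.5 for 6 natural killer cell markers, 22.5 for 7 erythroid and platelet markers, 13.4 for 7 monocyte, macrophage and dendritic cell markers, 7.31 for 2 CD8 markers and 6.19 for 5 neutrophil markers. No marker was at 0 in all libraries. The CD4 T cell sum itself differed between groups, at 805 to 904 CPM in DMSO_US, 1220 to 1420 in Comp10_US, 1540 to 1910 in DMSO_PI and 1970 to 2080 in Comp10_PI, and the natural killer sum went from 7.48 to 10.7 CPM in DMSO_US to 20.8 to 29.5 in Comp10_PI. The part of either in the results below was not tested. In such bulk samples fewer cells of a type and less RNA per cell cannot be told apart.

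All 8 genes passed the filter on low counts, so each was tested among 14011 genes with edgeR's quasi-likelihood test and Benjamini-Hochberg adjustment. With stimulation in vehicle 4 of 8 rose and none fell, where 14.4% of all genes tested rose and 13.8% fell (28.1% in either direction). With stimulation under Compound 10 the count was again 4 higher and 0 lower, with 11% and 10.8% of all genes (21.8% in either direction). The genes were Slc38a1, Slc7a1, Slc3a2 and Slc1a5 in each case. Compound 10 itself changed 1 gene in each state. Slc7a1 fell in stimulated cells, where 11.7% of all genes rose and 11.4% fell (23.1% in either direction). Slc38a1 rose in unstimulated cells, where 4.45% rose and 2.91% fell (7.36% in either direction). With limma on TPM the split of all genes was 978 higher and 1672 lower in vehicle and 595 and 1745 under Compound 10, against 2011 and 1929, and 1542 and 1510, in the main test. There, Slc38a1 and Slc7a1 alone of the 8 passed for stimulation, in vehicle as well as under Compound 10. For Compound 10, 1 in 8 is near the 11.4% that fell in stimulated cells in the main test. It is above the 4.45% that rose in unstimulated cells, but rests on 1 gene. Median log2 fold changes of the 8 genes were 0.79 and 0.70 for stimulation in vehicle and under Compound 10, and were -0.15 in the stimulated and 0.21 in the unstimulated state for Compound 10, while the medians over all genes tested lay between -0.05 and 0.00.

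**Figure D1:**
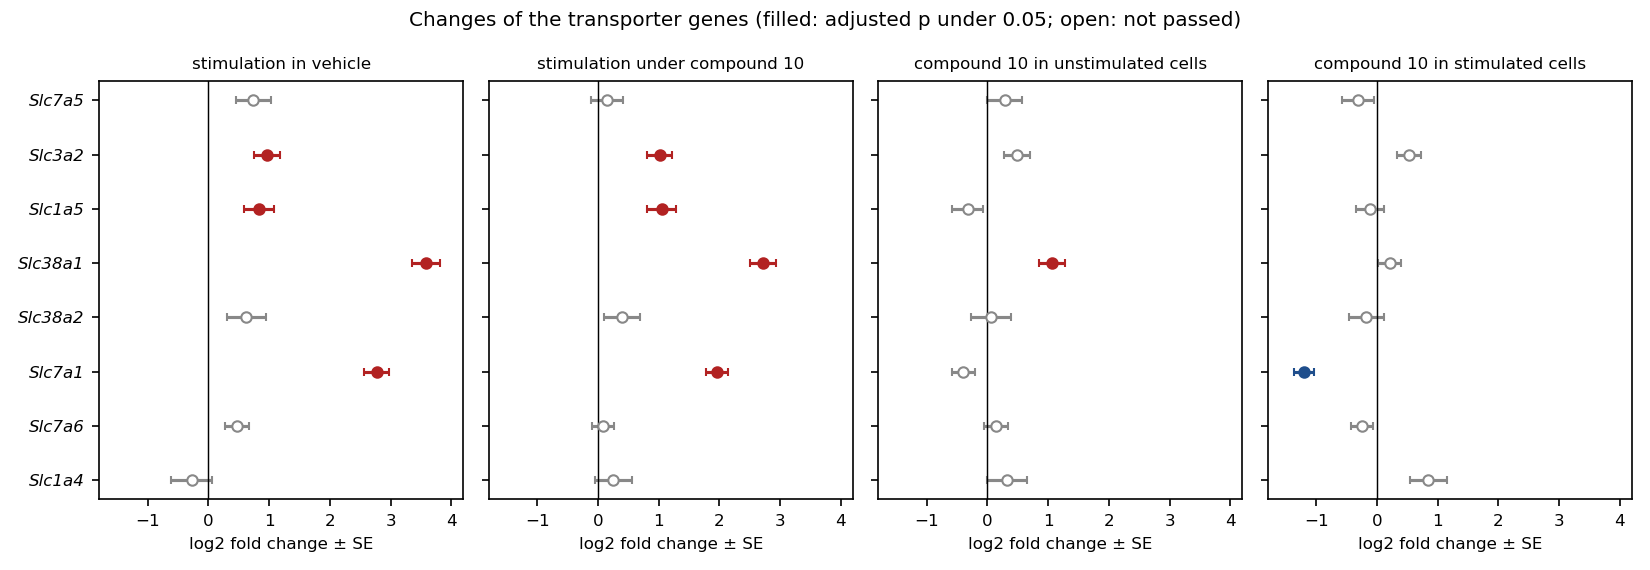
Log2 fold change with its standard error for each of the 8 genes in 4 comparisons, fitted over 9 libraries, with filled points for an adjusted p under 0.05. Stimulation panels hold 4 filled points each, and each Compound 10 panel holds 1.

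The System L carrier was described first. Slc7a5 encodes LAT1, the light chain that exchanges leucine and other large neutral amino acids, and Slc3a2 encodes 4F2hc (CD98), the heavy chain that carries LAT1 and several other light chains to the membrane. Slc3a2 lies on chromosome 19 from 8706882 to 8723369 of GRCm38, on the minus strand, and Slc7a5 on chromosome 8 from 121881150 to 121907694, also on the minus strand. Slc3a2 had 334 and 252 CPM in DMSO_US, 429.9 and 386 in Comp10_US, 634 and 509.7 in DMSO_PI, and 818, 789 and 864 in Comp10_PI. The 4 groups did not overlap, and their order was the same as this list. With stimulation in vehicle Slc3a2 rose by a log2 fold change of 0.97 (SE 0.22, adjusted p = 0.00556), and under Compound 10 by 1.01 (SE 0.20, adjusted p = 0.00365). Compound 10 gave log2 differences of 0.53 in stimulated cells (SE 0.20, adjusted p = 0.0761) and 0.48 in unstimulated cells (SE 0.22, adjusted p = 0.209), neither of which passed. Upper-quartile scaling and DESeq2 put the difference in stimulated cells past the threshold, at 0.62 (adjusted p = 0.032) and 0.51 (adjusted p = 0.0383). With upper-quartile scaling the median over all genes in this comparison was 0.092, against 0.0019 in the main test. The rise in vehicle was not called without DMSO_US replicate 2 (log2 0.78, adjusted p = 0.0629) or without both vehicle libraries rich in ribosomal RNA (0.94, adjusted p = 0.0507), and the rise under Compound 10 was not called without Comp10_US replicate 2 (0.94, adjusted p = 0.0602).

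Slc7a5 did not pass in any comparison. Its levels were 193 and 150.1 CPM in DMSO_US, 245 and 173 in Comp10_US, 341 and 231 in DMSO_PI, and 294, 169.6 and 229 in Comp10_PI. Both stimulated vehicle libraries lay above both unstimulated ones, whereas the Compound 10 groups overlapped each other. The log2 difference with stimulation was 0.74 in vehicle (SE 0.29, adjusted p = 0.0776) and 0.14 under Compound 10 (SE 0.26, adjusted p = 0.755), and it was -0.24 in the second case when TPM were tested instead. The vehicle difference passed with no filter (adjusted p = 0.00896), with DESeq2 (0.0351), in the fit of those 2 groups alone (0.046) and without Comp10_PI replicate 2 (0.0279). A gene on the opposite strand, Gm20388, overlaps Slc7a5, and its estimated counts were at most 4.72% of those of Slc7a5.

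**Figure D2:**
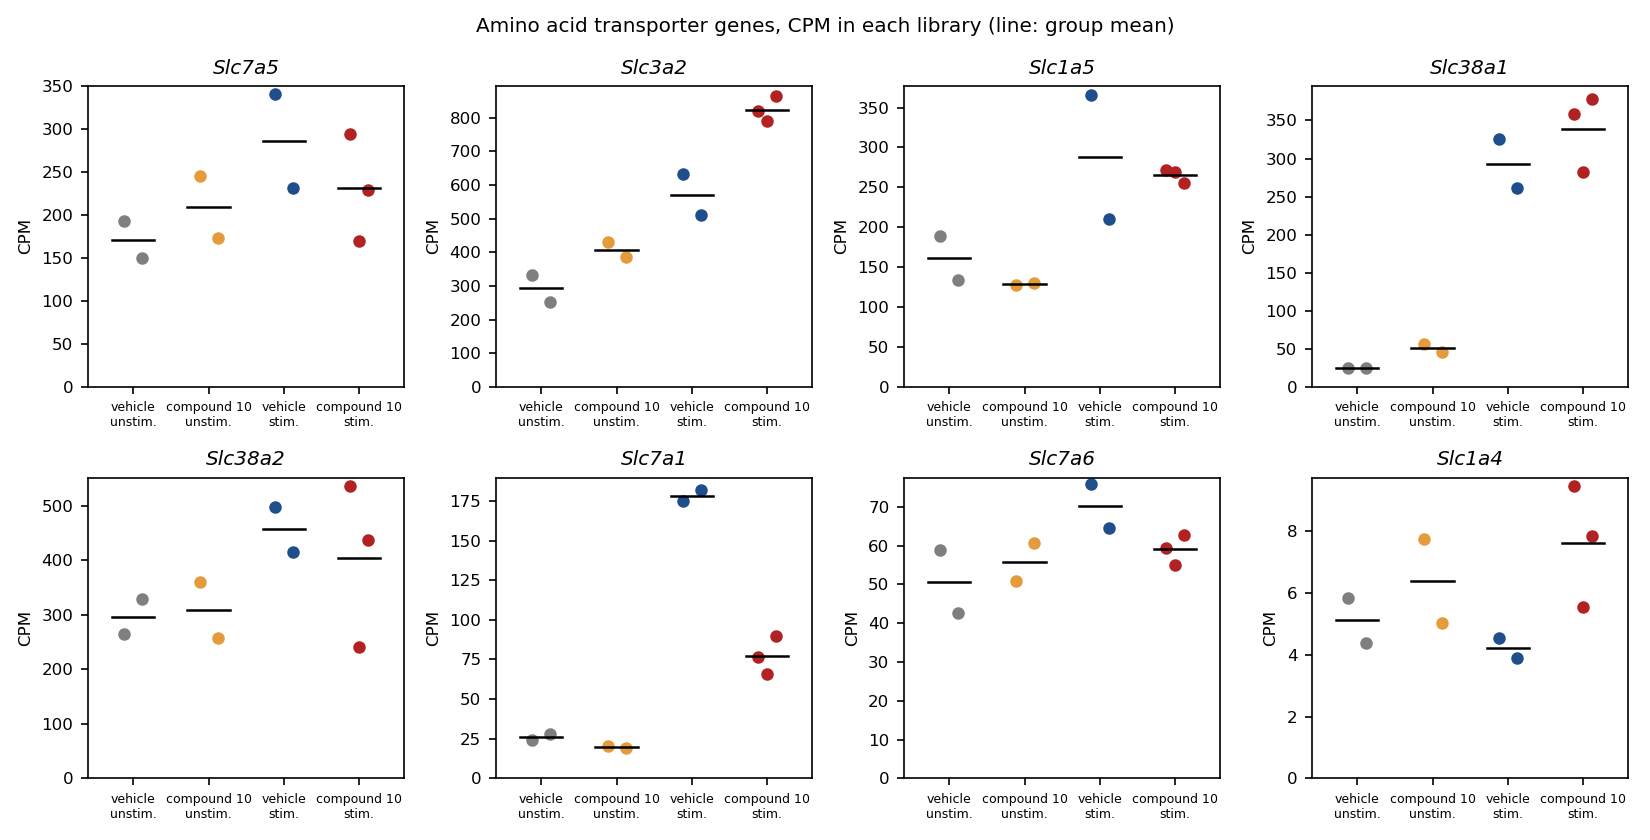
Level of each gene in CPM (linear axis from 0), 1 point per library and a line at the group mean, for vehicle and Compound 10 in unstimulated and stimulated cells. Slc38a1 and Slc7a1 have stimulated libraries far above all unstimulated ones, and the 3 Slc7a1 points with Compound 10 lie at 65.9 to 89.8 CPM below the vehicle pair at 175 and 182.

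Because the heavy and the light chain form 1 carrier, the ratio of their mRNAs was computed from TPM, a scale that accounts for transcript length. This ratio was chosen after its values were seen. Slc3a2 TPM divided by Slc7a5 TPM was 2.38 and 2.30 in DMSO_US, 2.35 and 2.88 in Comp10_US, 2.50 and 2.86 in DMSO_PI, and 3.62, 5.90 and 5.14 in Comp10_PI. The 3 stimulated libraries with Compound 10 were above the other 6. Their mean was 4.89 ± 1.16 (SD, n = 3) against 2.68 ± 0.25 (SD, n = 2) in DMSO_PI, with an exact two-sided permutation p of 0.2, the smallest that 3 against 2 libraries allow. As the ratio was chosen from these same values, this p describes them and cannot count as support.

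**Figure D3:**
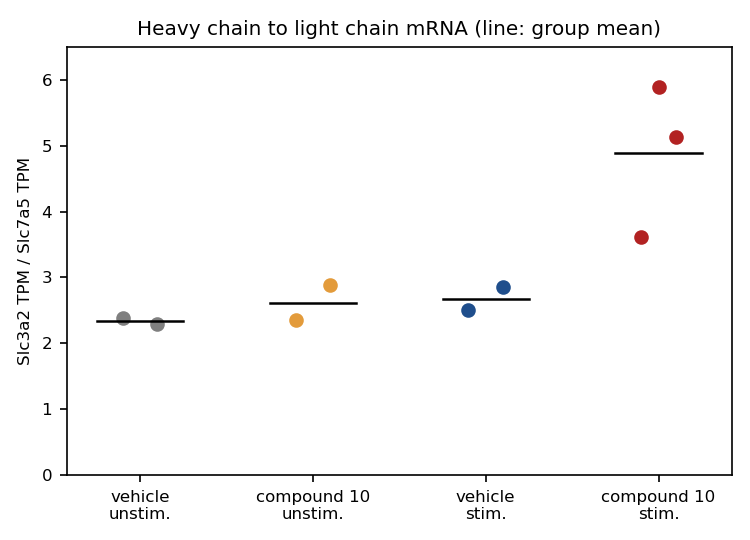
Ratio of Slc3a2 TPM to Slc7a5 TPM in each of 9 libraries (axis from 0), with lines at group means. The stimulated Compound 10 libraries range from 3.62 to 5.90, and the other 6 from 2.30 to 2.88.

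Slc7a6 encodes y+LAT2, another light chain of 4F2hc, which exchanges cationic for neutral amino acids. It lies on the plus strand of chromosome 8 from 106168857 to 106198706. Its levels were 58.8 and 42.5 CPM in DMSO_US, 50.8 and 60.7 in Comp10_US, 75.9 and 64.5 in DMSO_PI, and 59.3, 54.9 and 62.8 in Comp10_PI. All 9 libraries thus lay between 42.5 and 75.9 CPM, and no comparison passed. The stimulated vehicle libraries overlapped neither the unstimulated vehicle ones (log2 difference 0.47, SE 0.20, adjusted p = 0.102) nor the stimulated Compound 10 ones (-0.25, SE 0.18, adjusted p = 0.371). The first of these differences passed when Comp10_PI replicate 2 was left out of the fit (log2 0.53), at an adjusted p that rounds to 0.05. That library is in neither vehicle group and enters this comparison only through the shared fit.

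Slc1a5 encodes ASCT2, a sodium-dependent exchanger of glutamine and other small neutral amino acids, and spans 16781340 to 16798274 on the plus strand of chromosome 7. Levels were 189 and 134 CPM in DMSO_US, 127 and 130.0 in Comp10_US, 365 and 210.4 in DMSO_PI, and 272, 269 and 256 in Comp10_PI. Every stimulated library lay above every unstimulated one, and the vehicle pair of each state was spread more widely than the Compound 10 libraries. Slc1a5 rose with stimulation by a log2 fold change of 0.83 in vehicle (SE 0.26, adjusted p = 0.0284) and by 1.05 under Compound 10 (SE 0.24, adjusted p = 0.00814). The rise in vehicle was not called without DMSO_US replicate 2 (log2 0.62, adjusted p = 0.205), without DMSO_PI replicate 1 (0.38, adjusted p = 0.315), in the fit of those 2 groups alone (adjusted p = 0.061) or from protein-coding transcripts alone (0.0854). The rise under Compound 10 was not called without Comp10_US replicate 1 (log2 1.04, adjusted p = 0.0702) or replicate 2 (1.06, adjusted p = 0.0668). Compound 10 gave log2 differences of -0.12 in stimulated cells (SE 0.23, adjusted p = 0.777), which became 0.34 without DMSO_PI replicate 1, and -0.33 in unstimulated cells (SE 0.25, adjusted p = 0.491).

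Slc1a4 encodes ASCT1, a related carrier of alanine, serine and cysteine, and lies on the minus strand of chromosome 11 from 20302180 to 20332713. It had 65 to 119 estimated counts per library, the fewest of the set, so its levels are the least precise. These were 5.83 and 4.39 CPM in DMSO_US, 7.73 and 5.04 in Comp10_US, 4.54 and 3.90 in DMSO_PI, and 9.46, 5.54 and 7.86 in Comp10_PI. Stimulated libraries with Compound 10 lay above the stimulated vehicle ones without overlap, with a log2 difference of 0.85 (SE 0.31, adjusted p = 0.0689) that did not pass. It passed with upper-quartile scaling (0.94, adjusted p = 0.0416), where the median over all genes was 0.092, and without Comp10_PI replicate 2 (1.01, adjusted p = 0.0306). Stimulation in vehicle gave -0.27 (SE 0.34, adjusted p = 0.602), the one negative value of the 8 in that comparison.

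The sodium-coupled carriers of glutamine and other small neutral amino acids, SNAT1 (Slc38a1) and SNAT2 (Slc38a2), are neighbouring genes on the minus strand of chromosome 15, from 96571418 to 96642913 and from 96687392 to 96699730. Slc38a1 had 24.8 and 24.2 CPM in DMSO_US, 56.9 and 45.7 in Comp10_US, 326 and 261 in DMSO_PI, and 358, 282 and 378 in Comp10_PI. Both states and, among unstimulated libraries, both treatments were apart, while the stimulated groups overlapped. Slc38a1 rose 12-fold with stimulation in vehicle (log2 3.58, SE 0.23, adjusted p = 9.88e-07) and 6.62-fold under Compound 10 (log2 2.73, SE 0.22, adjusted p = 5.07e-06). These were the strongest rises of the 8 genes in both comparisons, at percentiles 98.8 and 98.4 of the log2 fold changes of all genes tested.

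In unstimulated cells Slc38a1 rose 2.09-fold with Compound 10 (log2 1.07, SE 0.22, adjusted p = 0.0134). This call was lost without DMSO_US replicate 1 (adjusted p = 0.0861), DMSO_US replicate 2 (0.0953) or Comp10_US replicate 1 (0.135), without both vehicle libraries rich in ribosomal RNA (0.0895), and with limma on TPM (0.123), at log2 values of 0.90 to 1.08. In stimulated cells the difference was 0.21 (SE 0.19, adjusted p = 0.493). The difference between the effects of Compound 10 in the 2 states was -0.86 on the log2 scale (SE 0.29, unadjusted p = 0.0113, adjusted p = 0.182) and did not pass.

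Slc38a2 had 264 and 328 CPM in DMSO_US, 360 and 257 in Comp10_US, 498 and 416 in DMSO_PI, and 537, 241 and 438 in Comp10_PI. Comp10_PI replicate 2 was the lowest library of all 9, and the other stimulated libraries were above every unstimulated one. No comparison passed: the log2 difference with stimulation was 0.63 in vehicle (SE 0.33, adjusted p = 0.18) and 0.39 under Compound 10 (SE 0.30, adjusted p = 0.404). The difference in vehicle passed with no filter on low counts (adjusted p = 0.0405). Without Comp10_PI replicate 2 both passed, at 0.68 (adjusted p = 0.0347) and 0.67 (adjusted p = 0.0488), and the difference with Compound 10 in stimulated cells went from -0.18 (SE 0.29, adjusted p = 0.732) to 0.07. That library is in neither vehicle group and enters the vehicle comparison only through the shared fit. Without it 2382 of all genes rose and 1965 fell in vehicle, against 2011 and 1929. Slc38a1 TPM was 0.0444 to 0.109 of Slc38a2 TPM in unstimulated libraries and 0.387 to 0.728 in stimulated ones.

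The 3 protein-coding transcripts of Slc38a1 did not keep their shares, as assigned by kallisto. Slc38a1-202 held 14.1% ± 0.94 of the gene's TPM in DMSO_US and 20.9% ± 0.59 in Comp10_US, against 52.1% ± 2.94 in DMSO_PI (SD, n = 2 each) and 47.0% ± 3.03 in Comp10_PI (SD, n = 3). Every stimulated library was above every unstimulated one. Slc38a1-201 held 7.44% ± 0.08 in DMSO_PI and 17.2% ± 3.87 in Comp10_PI, but 40.4% and 19.5% in the 2 DMSO_US libraries. The transcripts overlap along the gene, so the split between them is an estimate, and it was described without a test.

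Slc7a1 encodes CAT1, the main carrier of arginine and lysine in many cells. It lies on the minus strand of chromosome 5 from 148327410 to 148399904. As the gene that fell with Compound 10 in stimulated cells, it is shown with the 250 bases before both of its starts in RefSeq (GRCm38.p6), at chr5:148399905-148400154 and chr5:148392816-148393065, on the minus strand, written 5′ to 3′. The transcript that begins at the second start held at most 6.14% of the gene's TPM in a group mean. It had 0 TPM in DMSO_US replicate 1, both Comp10_US libraries, DMSO_PI replicate 1 and Comp10_PI replicate 2. Capitals mark matches, on either strand, to the AP-1 motif TGANTCA in the first window and to the NFAT core GGAAA in the second.
Slc7a1 main start: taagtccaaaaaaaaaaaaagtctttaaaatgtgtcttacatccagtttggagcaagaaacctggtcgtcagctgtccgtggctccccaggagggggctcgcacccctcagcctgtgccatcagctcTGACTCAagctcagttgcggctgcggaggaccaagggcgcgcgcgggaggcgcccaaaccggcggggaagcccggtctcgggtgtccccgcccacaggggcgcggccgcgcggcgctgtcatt
Slc7a1 second start: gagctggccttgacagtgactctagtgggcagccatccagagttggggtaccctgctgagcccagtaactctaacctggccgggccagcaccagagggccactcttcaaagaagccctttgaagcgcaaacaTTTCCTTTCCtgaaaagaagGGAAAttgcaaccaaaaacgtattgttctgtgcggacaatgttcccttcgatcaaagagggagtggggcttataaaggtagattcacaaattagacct

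RefSeq promoters were found for 5 of the 8 genes, in 7 windows. The AP-1 motif was in 1 of the 7, where 6.75% of 32851 promoter windows of that length held it, and the NFAT core was in 2 of the 7, the second start of Slc7a1 and Slc1a4, where 55.6% held it. Neither the E-box CACGTG (6.02% of all windows) nor TGATGNAA, the element of ATF4 with a C/EBP factor (3.45%), matched any of the 7, which says only that these letters are not in these windows. No 2 of these motifs overlapped in the windows printed. A match is a description of the sequence and not of binding.

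Slc7a1 had 24.2 and 28.1 CPM in DMSO_US, 20.5 and 19.2 in Comp10_US, 175 and 182 in DMSO_PI, and 76.5, 65.9 and 89.8 in Comp10_PI. No pair of groups overlapped, and within each state both vehicle libraries were above all Compound 10 ones. Stimulation raised it 6.82-fold in vehicle (log2 2.77, SE 0.20, adjusted p = 1.88e-06) and 3.90-fold under Compound 10 (log2 1.96, SE 0.19, adjusted p = 1.97e-05). In stimulated cells it fell with Compound 10 to 0.434 of the vehicle level (log2 -1.21, SE 0.17, adjusted p = 0.00042). The fall was called under each of 21 alternative settings, with log2 values from -1.40 to -0.93 and adjusted p up to 0.0291. In unstimulated cells the log2 difference was -0.40 (SE 0.19, adjusted p = 0.245), which did not pass. The effects of Compound 10 in the 2 states differed by -0.81 (SE 0.26, unadjusted p = 0.00825, adjusted p = 0.159), which did not pass either. The comparisons with stimulation and with Compound 10 in stimulated cells share the stimulated vehicle libraries, so the rise and the fall are not independent measurements.

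The coding transcript and a retained intron of Slc7a1 separated the stimulated groups to a different degree. The full-length coding transcript, Slc7a1-201, had 3.27 and 2.61 TPM in DMSO_US, 2.07 and 2.16 in Comp10_US, 18.0 and 16.8 in DMSO_PI, and 6.32, 5.13 and 7.04 in Comp10_PI. Slc7a1-204, annotated as a retained intron (148391417 to 148393648, a span that holds the second window above), had 2.21 and 1.05 TPM in DMSO_US, 1.91 and 2.21 in Comp10_US, 8.17 and 6.47 in DMSO_PI, and 4.68, 9.43 and 4.69 in Comp10_PI. For the coding transcript stimulated libraries with Compound 10 were all below the vehicle pair, and for the retained intron Comp10_PI replicate 2 was above it and the other 2 were below it. Counted from protein-coding transcripts alone, Slc7a1 fell with Compound 10 in stimulated cells by 1.40 on the log2 scale (adjusted p = 0.000733).

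**Figure D4:**
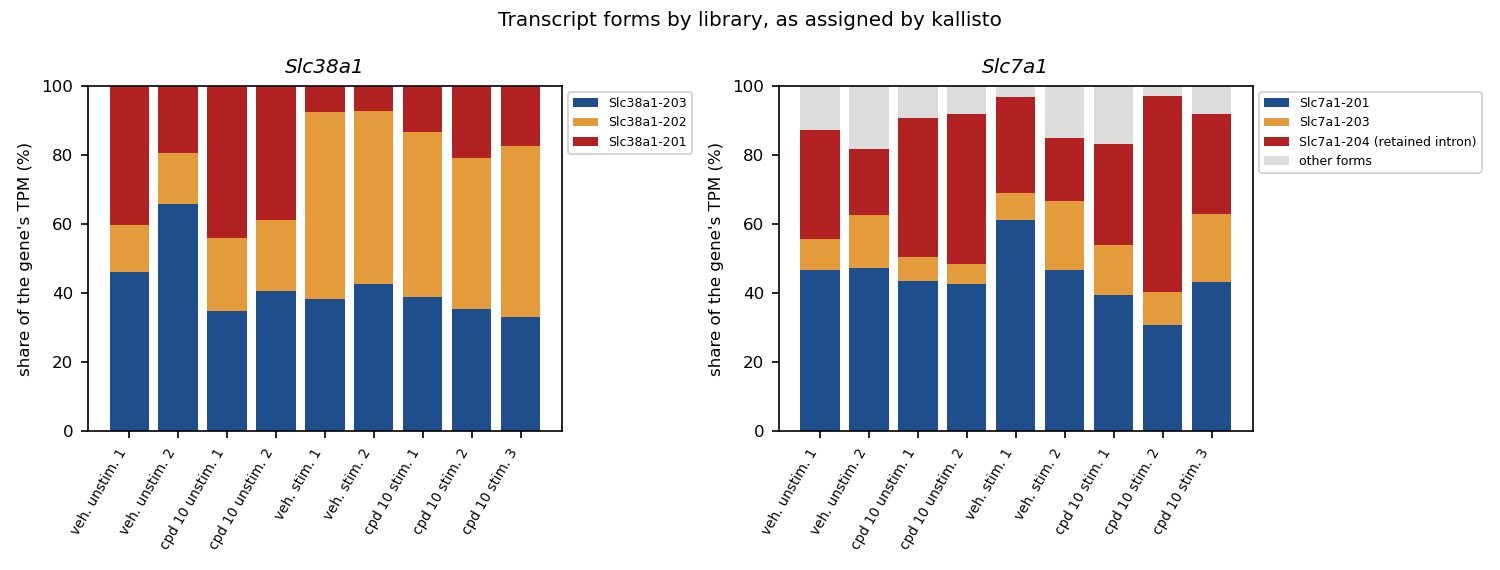
Share of each gene's TPM (percent) that kallisto assigned to its transcripts, for Slc38a1 and Slc7a1, with 1 bar per library. Slc38a1-202 grows from 13.4% to 21.3% in unstimulated libraries to 43.7% to 54.1% in stimulated ones, and the retained intron Slc7a1-204 ranges from 18.1% to 56.7%.

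For the interaction of Compound 10 with stimulation, 0 of the 8 genes passed with edgeR, with DESeq2 or with limma on TPM, and 2 (Slc38a1 and Slc7a1, above) had an unadjusted p under 0.05 with edgeR. Of all genes tested 1.03% passed, 0.421% higher and 0.607% lower (59 and 85 genes, but 81 and 65 with upper-quartile scaling and 3 and 19 with limma on TPM). Other interaction estimates were between -0.60 (Slc7a5, SE 0.39, adjusted p = 0.54) and 0.53 (Slc1a4, SE 0.45, adjusted p = 0.668). A p that misses the threshold does not show that the effects of Compound 10 were alike in both states.

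Per length, on the TPM scale, the order of the genes was stable at its ends. Slc3a2 was the most abundant in each of the 9 libraries, with group means of 126.8 (DMSO_US), 172.6 (Comp10_US), 194.6 (DMSO_PI) and 267.9 TPM (Comp10_PI), and Slc1a4 the least, at 0.82 to 1.99 TPM in single libraries. Slc1a5 and Slc38a2 held ranks 2 to 4 and Slc7a5 ranks 3 to 4, so these 3 changed places between libraries. Slc38a1, Slc7a1 and Slc7a6 each held ranks 5 to 7.

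Over the 9 libraries the level (log2 CPM) of each gene was compared with 4671 well-expressed genes, as a description in which all points share the same 4 groups and library depths. The genes most like Slc7a1 were Sinhcaf (Pearson r = 0.994) and Snu13 (0.993), those most like Slc38a1 were Pim3 and Hspa4l (0.993 each), and those most like Slc3a2 were Cdkn1a (0.994), the cell cycle inhibitor p21, and Mtfr1 (0.993). Slc7a5 was most like Il2rb (0.977), the beta chain of the interleukin-2 receptor, and Pfkp (0.968), a phosphofructokinase of glycolysis. Slc1a5 was most like Tnfrsf4 (0.982), the costimulatory receptor OX40, and Raly (0.971). The nearest genes to Slc38a2 were Cct2 (0.957) and Tle3 (0.951), to Slc1a4 Rnf41 (0.955) and Tmem164 (0.946), and to Slc7a6 Ahctf1 (0.919) and Ddx56 (0.884). The number of genes with r over 0.9 differed widely, from 1 for Slc7a6 to 424 for Slc38a1. Within the set the closest pair was Slc3a2 with Slc38a1 (r = 0.938), and Slc7a5 with its heavy chain Slc3a2 reached 0.549.

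Among other amino acid transporters single genes changed. Of 46 listed, 24 passed the filter on low counts, and 1 rose and 4 fell with stimulation in vehicle (14.4% and 13.8% of all genes). Slc16a10, a carrier of aromatic amino acids, went from 49.3 ± 7.53 to 150.9 ± 40.8 CPM (SD, n = 2 each; log2 1.62, SE 0.22, adjusted p = 0.000205). Those that fell included Ctns, the lysosomal cystine exporter (log2 -1.57), Slc38a9, a lysosomal arginine sensor of mTORC1 (-1.97), and Slc38a7, a lysosomal glutamine carrier (-2.36). With stimulation under Compound 10, 2 rose and 4 fell (11% and 10.8% of all genes). Slc38a9 and Slc38a7 did not pass in vehicle without both vehicle libraries rich in ribosomal RNA (log2 -1.78 and -2.33). Fewer of the list and of all genes were called in that fit. With Compound 10, 0 rose and 1 fell in each state (11.7% and 11.4% of all genes in stimulated cells, 4.45% and 2.91% in unstimulated ones). In stimulated cells this was Slc38a5, at 2.13 ± 1.49 CPM in vehicle (n = 2) and 0.54 ± 0.15 with Compound 10 (n = 3), which did not pass without DMSO_PI replicate 1 (adjusted p = 0.385) or any one Comp10_PI library (0.053 to 0.0773). In unstimulated cells it was the taurine transporter Slc6a6, at 128 ± 12.02 and 73.5 ± 5.08 CPM (n = 2 each; log2 -0.80, adjusted p = 0.0274), which was not called without any one of the 4 unstimulated libraries. The list's median log2 change was -0.37 with stimulation in vehicle, and with Compound 10 it was -0.06 in stimulated and -0.26 in unstimulated cells.

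Genes of amino acid sensing by mTORC1 were called in both directions. Of 37 tested, 8 rose and 10 fell with stimulation in vehicle (5 and 2 without both vehicle libraries rich in ribosomal RNA, where the split of all genes went from 2011 and 1929 to 1048 and 549). The smallest p belonged to Rheb, the GTPase that activates mTORC1 (log2 1.82), Rragd, a Rag GTPase (2.12), and Fnip1, a partner of folliculin (1.84), which rose, and to Sesn1 (-1.25), a member of the leucine-binding sestrins, which fell. With Compound 10 in stimulated cells 5 of 37 rose and 4 fell, near the shares of all genes (11.7% and 11.4%). Without both vehicle libraries rich in ribosomal RNA fewer of the list were called in stimulated cells, as among all genes. Lamtor5, a subunit of the Ragulator complex, was at 57.5 ± 5.17 CPM in vehicle (n = 2) and 16.3 ± 1.83 with Compound 10 (n = 3; log2 -1.82, SE 0.16, adjusted p = 3.48e-05), and Sec13, a subunit of GATOR2 and of COPII coats, fell by 1.40 (SE 0.17, adjusted p = 0.000167). Sesn1 rose there from 20.3 ± 2.64 to 51.2 ± 6.31 CPM (log2 1.33, SE 0.18, adjusted p = 0.000408), as did Rhebl1, a relative of Rheb (log2 1.06, adjusted p = 0.00441). In unstimulated cells 1 rose and 2 fell (4.45% and 2.91% of all genes), with Lamtor5 at -0.92 (adjusted p = 0.0108) and Sec13 at -0.82 (adjusted p = 0.0207). Without both vehicle libraries rich in ribosomal RNA fewer passed there, again as among all genes. Stimulation under Compound 10 gave 9 higher and 7 lower (11% and 10.8% of all genes). The list's median log2 change was -0.345 for stimulation in vehicle, and 0.07 and 0.0066 for Compound 10 in the stimulated and the unstimulated state.

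The amino acid response list held the kinase GCN2 (Eif2ak4), Eif2s1, Atf4 and other genes of this response. Of 20 tested, 6 rose and 2 fell with stimulation in vehicle (14.4% and 13.8% of all genes). Those that rose included Ppp1r15a (log2 1.65), Mthfd2 (1.32) and Psat1 (1.37). With Compound 10, 3 rose and 2 fell in the stimulated state (11.7% and 11.4% of all genes), and 4 rose and 0 fell in the unstimulated one (4.45% and 2.91%). Ddit4, an inhibitor of mTORC1, was at 8.91 ± 0.99 CPM in DMSO_US, 18.3 ± 3.83 in Comp10_US, 9.31 ± 1.30 in DMSO_PI and 30.7 ± 2.92 in Comp10_PI, with log2 fold changes of 1.03 (adjusted p = 0.0189) and 1.72 (adjusted p = 0.000224) for Compound 10 in the unstimulated and stimulated state. Ddit3, the stress factor CHOP, rose by 1.10 (adjusted p = 0.0103) and 1.30 (adjusted p = 0.000754). Psph, of serine synthesis, rose in stimulated cells (log2 1.12), while Aldh18a1, of proline synthesis, and Shmt2, the mitochondrial serine hydroxymethyltransferase, fell (-1.34 and -0.93). Atf4 itself, outside the rule for naming and chosen after its values were seen, gave 0.57 in unstimulated (SE 0.35, adjusted p = 0.377) and 0.45 in stimulated cells (SE 0.32, adjusted p = 0.371). With single libraries left out it ranged from 0.18 to 1.12 (without DMSO_US replicate 1 and 2) and from 0.13 to 0.87 (without DMSO_PI replicate 1 and 2) and did not pass. Without both vehicle libraries rich in ribosomal RNA the calls of the unstimulated state were lost. Fewer of all genes were called there too, so the loss cannot be set apart from that of all genes. Stimulation under Compound 10 gave 6 higher and 2 lower (11% and 10.8% of all genes). The list's median log2 change was 0.63 for stimulation in vehicle, and -0.21 and 0.45 for Compound 10 in the stimulated and the unstimulated state.

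**Figure D5:**
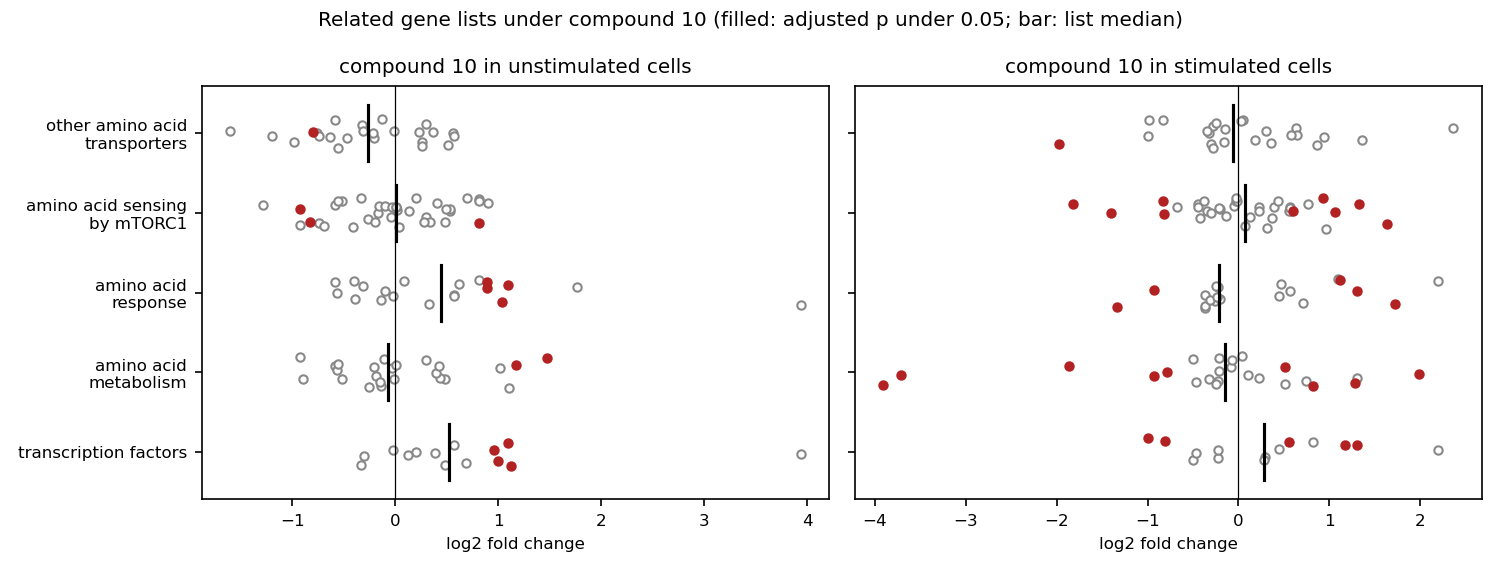
Log2 fold change with Compound 10 for each tested gene of 5 related lists, in unstimulated and in stimulated cells, with filled points for an adjusted p under 0.05 and a bar at the list's median. Filled points lie on both sides of 0 in stimulated cells, except among the other transporters, where the 1 filled point is Slc38a5.

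Enzymes of amino acid metabolism held the largest changes of these lists with Compound 10 in stimulated cells, where 4 of 24 rose and 5 fell. Bcat1, the cytosolic transaminase of branched-chain amino acids that LAT1 imports, was at 0.64 ± 0.63 CPM in DMSO_US and 0.42 ± 0.05 in Comp10_US, 30.3 ± 9.79 in DMSO_PI and 2.02 ± 0.34 in Comp10_PI. It rose with stimulation in vehicle (log2 5.59, SE 0.52, adjusted p = 1.43e-05) and fell with Compound 10 in stimulated cells (-3.91, SE 0.39, adjusted p = 7.8e-05). The rise was 7.23 without DMSO_US replicate 1 and 4.81 without replicate 2, and passed in both cases. Bcat2, its mitochondrial counterpart, was at 4.01 ± 2.53 CPM in DMSO_PI and 16.0 ± 2.73 in Comp10_PI and rose (log2 1.99, SE 0.35, adjusted p = 0.00173), by 2.86 without DMSO_PI replicate 1 and 1.46 without replicate 2. In unstimulated cells 2 rose and 0 fell, namely Got1 (log2 1.18) and Bcat2 (1.47). Without both vehicle libraries rich in ribosomal RNA fewer were called in both states, as among all genes. Stimulation gave 9 higher and 5 lower in vehicle (fewer without those libraries, as among all genes) and 5 higher and 2 lower under Compound 10. Of all genes tested, 14.4% rose and 13.8% fell with stimulation in vehicle, and 11% and 10.8% under Compound 10. With Compound 10, 11.7% of all genes rose and 11.4% fell in stimulated cells, and 4.45% and 2.91% in unstimulated ones. The list's median log2 change was 0.24 for stimulation in vehicle, and -0.15 and -0.07 for Compound 10 in the stimulated and the unstimulated state.

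Among 14 transcription factors linked to transporter genes, 7 rose and 2 fell with stimulation in vehicle. Fewer were called without both vehicle libraries rich in ribosomal RNA, as among all genes. Myc had the largest rise of those named, from 12.9 ± 2.41 to 1346 ± 161 CPM (n = 2 each; log2 6.70, SE 0.31, adjusted p = 9.81e-08), followed by Fos (2.85), Nfatc1 (2.43) and Hif1a (1.46). With Compound 10 in stimulated cells 3 rose and 2 fell, and fewer did so without both vehicle libraries rich in ribosomal RNA. Beside Ddit3, Nfatc2 rose, from 2.88 ± 0.51 (n = 2) to 6.53 ± 1.14 CPM (n = 3; log2 1.17, SE 0.36, adjusted p = 0.0349). It did not pass without any one of DMSO_PI replicates 1 and 2, Comp10_PI replicates 1 and 3 and Comp10_US replicates 1 and 2 (adjusted p = 0.0503 to 0.203). Hif1a and Nfatc1 fell, by 0.99 and 0.81 on the log2 scale, but Hif1a did not pass without DMSO_PI replicate 1 (adjusted p = 0.0798), and Nfatc1 not without DMSO_PI replicate 1 (0.181), DMSO_PI replicate 2 (0.0718) or Comp10_PI replicate 3 (0.0584). Myc, outside the rule for this comparison and chosen after its values were seen, gave -0.50 (SE 0.22, adjusted p = 0.126), at 954 ± 175 CPM with Compound 10 (n = 3), and passed without Comp10_PI replicate 2 (-0.66, adjusted p = 0.044). In unstimulated cells 4 rose and 0 fell, among them Nfe2l2 (1.13) and Jun (1.00). Without both vehicle libraries rich in ribosomal RNA fewer of the list and of all genes were called. Stimulation under Compound 10 gave 4 higher and 1 lower. The shares of all genes that rose and fell were 14.4% and 13.8% for stimulation in vehicle, and 11% and 10.8% under Compound 10. For Compound 10 they were 11.7% and 11.4% in stimulated cells, and 4.45% and 2.91% in unstimulated ones. The list's median log2 change was 0.74 for stimulation in vehicle, and 0.29 and 0.53 for Compound 10 in the stimulated and the unstimulated state. Of the 13 gene calls that the naming rule chose for Compound 10 in unstimulated cells, counting a gene once per comparison, all 13 were lost when 1 library or another was left out, against 4 of 16 in stimulated cells.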

How the data were processed

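Per the labels' protocols, RNA came from Qiagen kits and sequencing libraries from Clontech SMART-seq. Cutadapt, kallisto and mm10 are named in the submitters' processing notes; for their versions and the transcript annotation, nothing is given in the sources used here. The authors deposited estimated counts per transcript, without normalization between libraries, and TPM beside them, per the file headers. Of 109617 transcripts, 108214 matched GENCODE M21 (GRCm38) without the identifier's version. Unmatched ones held 0.542% to 0.829% of counts. Estimated counts were summed for 45321 genes and rounded.

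Groups came from the sample titles. All 9 libraries entered 1 fit with edgeR 4.0.16 in R 4.3.3 (filterByExpr by group, TMM, glmQLFit with robust shrinkage, glmQLFTest, two-sided), with Benjamini-Hochberg adjustment over 14011 genes and a threshold of 0.05. Standard errors (SE) were obtained as |log2 fold change|/√F. Alternatives used DESeq2 1.42.0, limma 3.58.1 on log2(TPM + 1), other scalings and filters, and left-out libraries. DNA motifs were searched in RefSeq promoters.

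The members and lists were chosen with earlier results of these data known. Genes named beside the 8 were the 2 most like each (mean log2 CPM of at least 4) and, per list and comparison, at most 4 with the smallest p. Transcripts named held at least 10% of TPM in a group mean. Not every gene so chosen is reported here.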

Additional observations from a re-analysis of the deposited data

How the results depend on the processing

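Of 40 results for single transporter genes (8 genes in 5 comparisons) 10 passed, and 5 of these kept their direction and their side of the threshold under all alternatives run: the rises of Slc38a1 and Slc7a1 in both stimulation comparisons and the fall of Slc7a1 with Compound 10 in stimulated cells. With 2 or 3 libraries per group, single libraries decided most other calls. Leaving out 1 library at a time, 1 to 2 of the 8 genes passed for Compound 10 in stimulated cells, 0 to 1 in unstimulated cells, 2 to 7 for stimulation in vehicle and 2 to 5 for stimulation under Compound 10. The counts over all genes were 1973 to 3167, 174 to 1457, 2425 to 4347 and 1506 to 3085, against 3234, 1031, 3940 and 3052 with all libraries, and 29 to 264 against 144 for the interaction. The lowest came without DMSO_PI replicate 2, Comp10_US replicate 1, DMSO_US replicate 2, Comp10_US replicate 2 and Comp10_US replicate 1 in turn.

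Direction changed with a library for genes that had not passed. For Compound 10 in stimulated cells log2 values ranged from -0.56 to 0.004 for Slc7a5, from -0.46 to 0.34 for Slc1a5 and from -0.43 to 0.071 for Slc38a2. In unstimulated cells they ranged from -0.21 to 0.28 for Slc38a2, from -0.071 to 0.38 for Slc7a6 and from -0.021 to 0.60 for Slc1a4. For stimulation under Compound 10 the ranges were -0.088 to 0.42 for Slc7a5, -0.036 to 0.21 for Slc7a6 and -0.028 to 0.60 for Slc1a4. For the interaction they were -0.16 to 0.23 for Slc3a2, -0.14 to 0.67 for Slc1a5 and -0.49 to 0.033 for Slc38a2.

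Where no cause is named for the following shifts, the cause was not tested. Limma on log2(TPM + 1) called 1195 genes for Compound 10 in the stimulated state, 231 in the unstimulated state and 22 for the interaction, and 0 of the 8 for Compound 10 in unstimulated cells. It called 2 of the 8 in each stimulation comparison, with medians over all genes of -0.17 in vehicle and -0.21 under Compound 10, and gave -0.24, -0.04, -0.27 and -0.076 for Slc7a5, Slc38a2, Slc7a6 and Slc1a4 under Compound 10, and -0.051 and -0.057 for Slc3a2 and Slc1a5 in the interaction. Its split of all genes was 978 higher and 1672 lower in vehicle (2011 and 1929 in the main test), 595 and 1745 under Compound 10 (1542 and 1510), and 3 and 19 for the interaction (59 and 85). Upper-quartile scaling called 3 of the 8 for Compound 10 in stimulated cells and moved the median of all genes there to 0.092, with 1981 higher and 1337 lower. DESeq2 called 2 of the 8 in that comparison, with 1635 higher and 1660 lower over all genes. For the interaction upper-quartile scaling moved the median of all genes to 0.12, with 81 higher and 65 lower. With no filter 1569 genes were called for Compound 10 in unstimulated cells and 512 for the interaction, where Slc3a2 was at -0.013. DESeq2 called 375 and the effective length offset 83 for the interaction. Without both vehicle libraries rich in ribosomal RNA, an alternative chosen after seeing the data, 1827, 295, 1597 and 13 genes were called for Compound 10 in stimulated and unstimulated cells, stimulation in vehicle and the interaction, with fewer samples, and 0 of the 8 for Compound 10 in unstimulated cells, where Slc7a6 was at -0.071. Only 4 of the 16 genes most like a member were also chosen by Spearman correlation.

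Whether the replicate numbers pair the samples could not be settled. Over 12 same-numbered pairs the correlation of deviations was -0.101 to 0.326, and 5 were over 0.1. In a group of 2 libraries the deviations mirror each other, so these pairs are not separate values. A block for the replicate numbers called 43 genes for the interaction and moved no other count over all genes by more than 1.5 times. Among the 8 genes the block added Slc7a5 for stimulation in vehicle (adjusted p = 0.0223). Crossed numbers in the unstimulated libraries, at a correlation of 0.101 (-0.101 for the same numbers), gave 1885 genes and 1 of the 8.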
